A study of Mus musculus with 12 samples.

Results

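The genes described here encode matricellular proteins, which sit in the extracellular matrix and tune how cells attach to it, and matrix proteins made by fibroblasts. They were chosen by symbol for what they encode, with earlier results of these data known. They are Postn, Tnc, Spp1, Sparc, Thbs1, Fn1, Lox, Fbn1, Dcn and Lum, 10 genes in all. Of these, 8 were measured, each by 1 probe set, among 21314 genes. Spp1, which encodes osteopontin, and Fbn1, which encodes the microfibril protein fibrillin, had no probe set under their symbol or gene ID in the platform annotation and were not analysed here.

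The study examined how mice without Parp1, the enzyme that builds ADP-ribose chains on proteins at broken DNA, differ from wild-type mice in the colon at rest and after chemical injury. There were 4 groups of 3 mice aged 6 to 8 weeks: Parp1-/- mice that drank dextran sulfate sodium (DSS) at 4% during 7 days, Parp1-/- mice on plain water, wild-type mice given DSS in the same way, and wild-type mice on plain water. DSS, taken up with the drinking water, injures the lining of the colon and brings on colitis. RNA of the whole colon of each mouse was measured on 1 Affymetrix array. The labels name neither strain, sex nor the structure of the Parp1 mutation, and do not say whether the wild-type mice were littermates.

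Matricellular proteins are scarce in most resting adult tissue and are made by fibroblasts and other stromal cells where tissue is injured, remodelled or under tension. They bind integrins, collagens and growth factors, and TGF-beta is a common inducer of their genes. Fibronectin and the small leucine-rich proteoglycans belong to the fibrous matrix itself, and in the colon they are laid down mainly by fibroblasts of the mucosa and submucosa, with a contribution from smooth muscle cells of the wall.

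Values are on a log2 scale on which the median of the 12 arrays had been set to 0 for each probe set. A value of 1 therefore stands for a level 2 times that median, so values of 1 gene can be set side by side across arrays but say nothing of which gene is the more abundant. Base 2 and larger values for more RNA were assumed. A gene was called where its adjusted p in limma, a linear model with moderated variances, was under 0.05 over all 21314 genes. The 12 arrays limit the precision, and in whole-colon RNA fewer cells of a type and less RNA per cell cannot be told apart.

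Some arrays stood apart from the rest of their group. The 3 wild-type water arrays and wild-type DSS 1 had means of 15 housekeeping genes between -1.80 and -1.05, against -0.04 to 0.38 on the other 8 arrays, and means of 12 epithelial markers between -1.60 and -0.90, against -0.11 to 0.34. Means of 1054 olfactory and vomeronasal receptor genes, which the colon should hardly express, were 0.40 to 0.46 on those 4 arrays and -0.16 to 0.09 on the other 8. Parp1-/- DSS 1 and Parp1-/- water 2 and 3 had means of 18 smooth muscle markers between 2.36 and 2.44, against -0.48 to 0.04 on the other 9 arrays, and means of 18 fibroblast markers between 0.51 and 1.13, against -0.51 to 0.45. The Parp1 probe set, whose position relative to the mutation is not given, read -0.22, -0.09 and 0.03 in Parp1-/- DSS mice, -0.03, -0.08 and -0.01 in Parp1-/- water mice, 0.01, 0.51 and 0.77 in wild-type DSS mice and -0.41, 1.15 and 0.53 in wild-type water mice. The array labelled wild-type water 1 was thus lower for Parp1 than all 6 Parp1-/- arrays, and it also had the lowest housekeeping mean, at -1.80. Wild-type DSS 1, at 0.01, lay within the range of the Parp1-/- arrays. Parp1 was not called between genotypes in water (-0.47 ± 0.33, limma adjusted p = 0.273) or in DSS (-0.52 ± 0.33, adjusted p = 0.872). The groups overlapped in both.

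The promoters of the matricellular genes are shown because these genes share induction in injured tissue, and promoters of 3 of the 8 measured genes (Postn, Tnc and Sparc) were matched in the RefSeq table of mouse assembly GRCm38.p6. The sequences are the 250 bases upstream of a start site, read 5′ to 3′ on the strand of the gene, at chr3:54360857-54361106 (plus strand, the downstream of the 2 Postn start sites) and chr4:64047016-64047265 (minus strand, the upstream of the 2 Tnc start sites). Capitals mark TATAAA, a core sequence of the TATA box, which lies close to the start of many strongly induced genes.
Postn: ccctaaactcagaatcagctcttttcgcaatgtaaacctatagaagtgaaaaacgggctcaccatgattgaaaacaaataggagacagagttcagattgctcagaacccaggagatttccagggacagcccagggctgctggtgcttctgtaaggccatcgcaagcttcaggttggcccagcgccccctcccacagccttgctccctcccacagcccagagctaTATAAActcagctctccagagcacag
Tnc: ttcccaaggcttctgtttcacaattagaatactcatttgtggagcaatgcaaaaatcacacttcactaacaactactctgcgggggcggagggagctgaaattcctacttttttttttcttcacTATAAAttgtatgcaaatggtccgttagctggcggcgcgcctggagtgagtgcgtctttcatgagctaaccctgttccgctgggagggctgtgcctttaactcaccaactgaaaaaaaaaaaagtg
TATAAA lay 26 to 21 bases upstream of this Postn start, and much further away, 126 to 121 bases upstream, at this Tnc start. In the window of the other Tnc start, not shown, it lay 205 to 200 bases upstream. Only exact TATAAA was searched, and that window also holds the similar TATATAA near its end, close to the start. Whether any of these sequences works as a TATA box was not tested. Exact TATAAA was in 12.4% of 32851 promoter windows of the same length when both strands were searched. It was not in the Sparc window or in the window of the other Postn start. TGANTCA (the AP-1 motif, in 6.75% of windows), CATTCC (the TEAD motif, 12.6%) and the CArG box of serum response factor (1.47%), searched on both strands, had no match in the windows of the 3 genes.

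Among the matricellular genes, Postn encodes periostin, which is secreted by fibroblasts and crosslinks collagen networks. Postn read 1.41, 0.08 and -0.56 in Parp1-/- DSS mice, -0.08, 2.92 and 3.16 in Parp1-/- water mice, -0.53, 0.36 and 1.33 in wild-type DSS mice and -1.61, -0.37 and -1.81 in wild-type water mice. Parp1-/- water 2 and 3 were the highest of all 12 arrays, Parp1-/- DSS 1 came next, and all 3 Parp1-/- water mice were above all 3 wild-type water mice. Parp1-/- water 1, at -0.08, was far below its 2 group mates.

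Tnc encodes tenascin-C, a hexameric glycoprotein that loosens cell adhesion in healing wounds. Tnc read 0.45, -0.10 and -0.34 in Parp1-/- DSS mice, -0.75, 1.5 and 1.34 in Parp1-/- water mice, -0.06, 0.39 and 0.24 in wild-type DSS mice and 0.06, -0.40 and -0.40 in wild-type water mice. The same Parp1-/- water pair was highest and its group mate was the lowest of all 12 arrays, so that group spanned the whole range of the gene.

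Thbs1 encodes thrombospondin-1, which binds CD47 and activates latent TGF-beta and which platelets also carry. Thbs1 read -0.03, 2.22 and -0.28 in Parp1-/- DSS mice, -0.66, 0.25 and 0.56 in Parp1-/- water mice, 0.03, 0.67 and 0.38 in wild-type DSS mice and -2.34, -1.52 and -2.49 in wild-type water mice. Its pattern differed from that of Postn: the highest array was Parp1-/- DSS 2, where smooth muscle markers averaged -0.17, and all 9 other-group arrays were above the wild-type water arrays. Means of 4 platelet markers ranged from -0.21 to 0.31 over the 12 arrays and were highest, at 0.31, on the same Parp1-/- DSS 2 array; their part in the value was not tested.

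Sparc encodes osteonectin, a collagen-binding protein of remodelling tissue that is also made by endothelium. Sparc read 0.15, 0.48 and 0.11 in Parp1-/- DSS mice, -1.33, 0.71 and 0.71 in Parp1-/- water mice, 0.02, -0.41 and -0.02 in wild-type DSS mice and -1.84, -1.02 and -0.51 in wild-type water mice. The DSS mice of both genotypes lay within a narrow span, from -0.41 to 0.48, while the Parp1-/- water mice had 1 value inside the wild-type water range and 2 above every other array.

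Of the genes for matrix assembly, Fn1 encodes fibronectin, the adhesive glycoprotein on which other matrix proteins are deposited. Fn1 read 1.39, 0.54 and -0.20 in Parp1-/- DSS mice, -1.55, 1.75 and 1.67 in Parp1-/- water mice, -0.84, 0.74 and 0.20 in wild-type DSS mice and -2.23, -1.53 and -1.60 in wild-type water mice. Parp1-/- water 1 lay among the wild-type water mice, and the other 2 mice of its group were the highest of all.

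Lox encodes lysyl oxidase, the enzyme that starts the crosslinking of collagen and elastin. Lox read -0.04, 0.04 and -0.33 in Parp1-/- DSS mice, -0.51, 0.21 and -0.09 in Parp1-/- water mice, 0.15, -0.10 and 1.02 in wild-type DSS mice and 0.05, 0.28 and -0.14 in wild-type water mice. Apart from wild-type DSS 3, at 1.02, the arrays lay between -0.51 and 0.28, the groups overlapped in each comparison, and no group stood out.

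The proteoglycan genes Dcn and Lum are neighbours on chromosome 10 in the RefSeq gene table. Dcn encodes decorin, which coats collagen fibrils and binds TGF-beta. Dcn read 1.16, 0.54 and 0.14 in Parp1-/- DSS mice, -2.13, 1.67 and 1.63 in Parp1-/- water mice, -0.65, -0.14 and 0.49 in wild-type DSS mice and -2.84, -1.81 and -2.17 in wild-type water mice. The wild-type water mice and Parp1-/- water 1 formed the low end, from -2.84 to -1.81, and all other arrays were at -0.65 or above.

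Lum encodes lumican, which regulates the spacing of collagen fibrils. Lum read 0.57, 0.03 and -0.41 in Parp1-/- DSS mice, -0.36, 1.60 and 1.37 in Parp1-/- water mice, -0.26, -0.49 and -0.27 in wild-type DSS mice and 0.35, -0.03 and 0.15 in wild-type water mice. It shared with Dcn the high pair of Parp1-/- water mice. It did not share the low end: the wild-type water mice, lowest for Dcn, were all above the wild-type DSS mice for Lum.

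**Figure D1:**
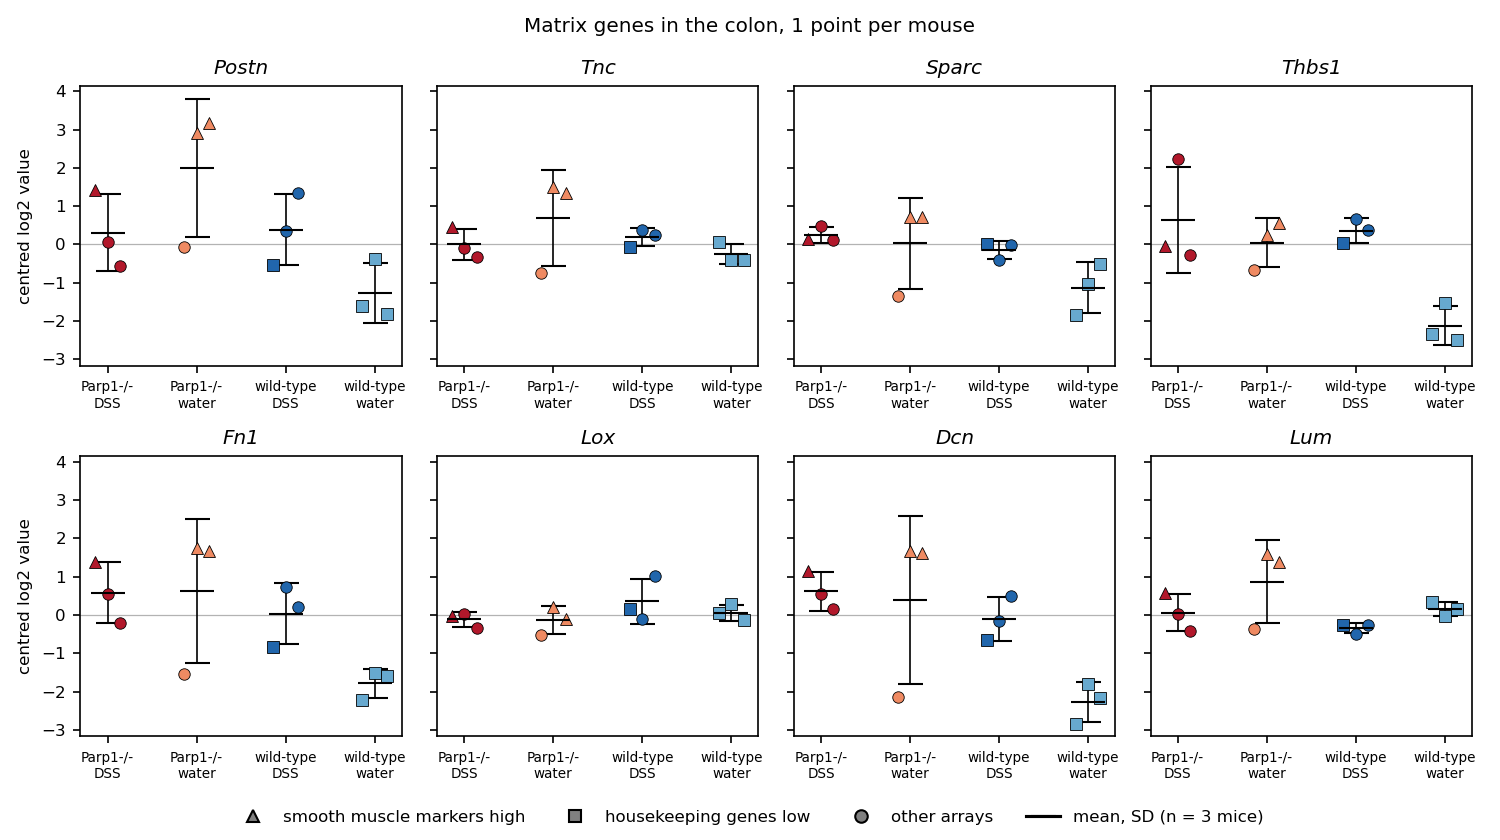
Centred log2 values (y axis) of the 8 measured matrix genes in the 4 groups (x axis), 1 point per mouse and a bar at each group mean. In Postn, Tnc, Sparc, Fn1, Dcn and Lum the 2 highest of the 12 points are both Parp1-/- water mice, and in Thbs1 all 3 wild-type water points lie below the other 9.

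The split of the Parp1-/- water group ran through the matrix genes together. Both Parp1-/- water 2 and 3 were above Parp1-/- water 1 in 8 of 8 matrix genes, against 38.9% of all genes. They were the top pair of all 12 arrays in 6 of 8 matrix genes, against 8.15% of all genes, with Thbs1 and Lox as the exceptions. Other lists shared the split. The pair was above Parp1-/- water 1 in 18 of 18 smooth muscle, 12 of 12 endothelial and 17 of 18 fibroblast markers. It was the top pair in 5 of 18, 7 of 12 and 9 of 18 of them. The mean of the 8 genes was -0.92 on Parp1-/- water 1 and 1.33 and 1.29 on Parp1-/- water 2 and 3. On the same arrays smooth muscle markers averaged -0.38, 2.44 and 2.36, fibroblast markers -0.51, 1.13 and 0.98, and endothelial markers -0.33, 0.88 and 0.64. The part of these cell types in the matrix gene values was not tested.

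Parp1-/- DSS 1 carried smooth muscle markers at 2.42, close to the level of that pair. Its values for the 8 genes lay between -0.04 and 1.41, and the means of the 8 genes on the Parp1-/- DSS arrays 1 to 3 were 0.63, 0.48 and -0.23. Parp1-/- DSS 1 was below both Parp1-/- water 2 and 3 in 7 of 8 matrix genes and in 6550 of 21314 genes. The same order held in 11 of 12 endothelial, 13 of 18 fibroblast and 6 of 18 smooth muscle markers. Fibroblast markers on Parp1-/- DSS 1 averaged 0.51, against 1.13 and 0.98 on the pair. Endothelial markers averaged 0.33 on Parp1-/- DSS 1, against 0.88 and 0.64 on the pair.

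**Figure D2:**
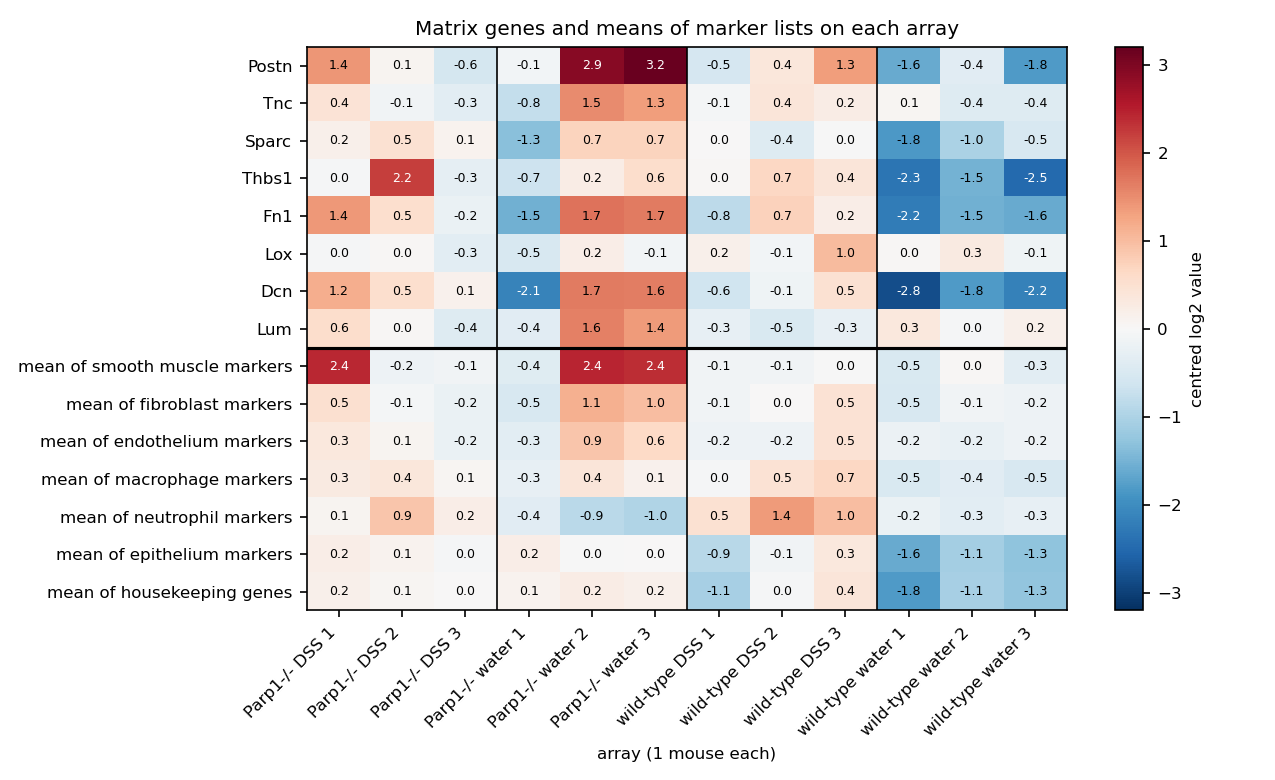
Heat map of centred log2 values, with the 12 arrays along the x axis by group and, down the y axis, the 8 matrix genes followed by the means of the marker lists. Parp1-/- water 2 and 3 are high in Postn, Fn1, Dcn and the smooth muscle and fibroblast means, and the 3 wild-type water arrays are low in Postn, Thbs1, Fn1 and Dcn and in the housekeeping and epithelial means.

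The comparison of genotypes in water asks how the resting colon without Parp1 differs from that of wild-type mice. Postn, Thbs1, Fn1 and Dcn were higher in Parp1-/- water mice. Postn averaged 2.0 ± 1.80 in Parp1-/- water mice and -1.26 ± 0.78 in wild-type water mice (SD, n = 3 each), a log2 difference of 3.26 ± 0.83 (standard error; 95% interval 1.44 to 5.09; limma adjusted p = 0.0151). Dcn averaged 0.39 ± 2.18 in Parp1-/- water mice and -2.27 ± 0.52 in wild-type water mice, a difference of 2.66 ± 0.82 (adjusted p = 0.0315). Fn1 averaged 0.62 ± 1.88 in Parp1-/- water mice and -1.79 ± 0.39 in wild-type water mice, a difference of 2.41 ± 0.77 (adjusted p = 0.0362). Thbs1 averaged 0.05 ± 0.63 in Parp1-/- water mice and -2.12 ± 0.52 in wild-type water mice, a difference of 2.16 ± 0.57 (adjusted p = 0.0176).

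The genotype groups did not overlap in water for Postn and Thbs1, while for Fn1 and Dcn Parp1-/- water 1 fell within the wild-type range. The other 4 genes were not called: Tnc differed by 0.95 ± 0.48 (adjusted p = 0.145), Sparc by 1.15 ± 0.49 (adjusted p = 0.0905), Lum by 0.72 ± 0.43 (adjusted p = 0.204) and Lox by -0.19 ± 0.28 (adjusted p = 0.60). The 4 of 8 called stand beside 31.6% of all genes called, 17.9% higher and 13.7% lower, and groups that did not overlap were found in 2 of 8 matrix genes and in 55.4% of all genes. After quantile normalization 1555 genes were called higher and 563 lower, against 3813 and 2912 without it, and no matrix gene was called. The median difference was 1.66 over the 8 matrix genes, -0.07 over all genes and 1.63 over the 15 housekeeping genes, of which 13 were called higher.

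The calls in water depended on single mice. Without Parp1-/- water 2 the Postn difference was 2.80 (adjusted p = 0.0660) and the Thbs1 difference 2.06 (adjusted p = 0.0643), without Parp1-/- water 3 they were 2.68 (adjusted p = 0.0669) and 1.91 (adjusted p = 0.0723), and neither fit called a matrix gene. Without Parp1-/- water 1, 7 of 8 were called, all but Lox, with Tnc at 1.67 (adjusted p = 0.00288), Sparc at 1.83 (adjusted p = 0.00537) and Lum at 1.33 (adjusted p = 0.00816). Over all 21314 genes that fit called 5322, against 6725 in the main fit. The fits without Parp1-/- water 2 and without Parp1-/- water 3 called 2948 and 3029. With Parp1-/- water 1 left out, its group held only Parp1-/- water 2 and 3, both high in smooth muscle markers. The part of smooth muscle in these 7 calls was not tested. Without the array labelled wild-type water 1 only Postn was called, at 3.09 (adjusted p = 0.0472), and the same held without wild-type water 3, at 2.99 (adjusted p = 0.0482). Without wild-type water 2 Fn1 was not called and the other 3 genes were.

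With the smooth muscle mean of each array as a covariate the differences were 1.64 for Postn (adjusted p = 0.0923), 2.08 for Thbs1 (adjusted p = 0.0986), 0.92 for Fn1 and 1.10 for Dcn. With the housekeeping mean as a covariate they were 1.02 for Postn, 1.49 for Thbs1, 0.69 for Fn1 and 1.01 for Dcn. The housekeeping mean did not overlap between the 2 groups in water, so its part and that of the genotype cannot be told apart. In a fit of the 9 arrays other than Parp1-/- DSS 1 and Parp1-/- water 2 and 3, chosen after seeing the data, the differences were 1.18 for Postn, 1.45 for Thbs1, 0.24 for Fn1 and 0.14 for Dcn, with the lone Parp1-/- water mouse assumed to vary like the other groups. No matrix gene was called in these 3 fits.

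**Figure D3:**
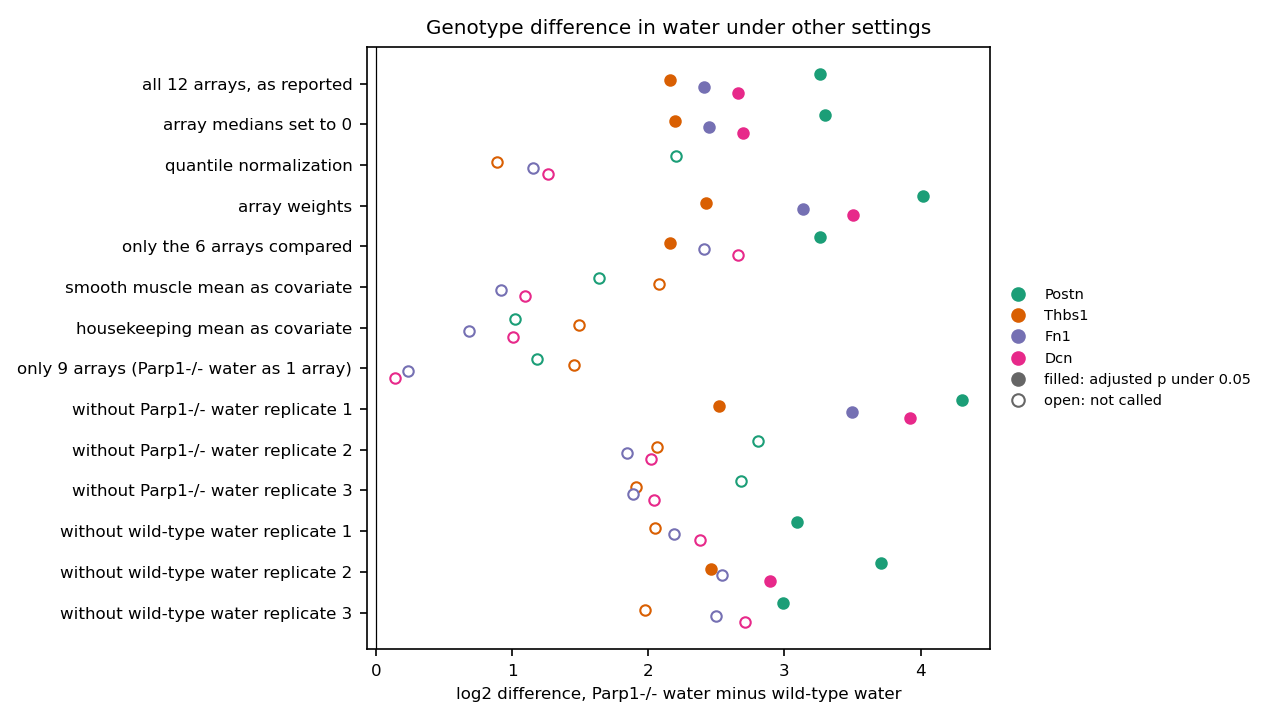
Log2 difference, Parp1-/- water minus wild-type water (x axis), of Postn, Thbs1, Fn1 and Dcn under the settings named on the y axis, with filled symbols where the gene was called. Postn ranges from 1.02 to 4.30, Thbs1 from 0.89 to 2.52, Fn1 from 0.24 to 3.50 and Dcn from 0.14 to 3.92.

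The comparison of DSS with water in wild-type mice asks how the wild-type colon responds to injury. All 3 of its water arrays and wild-type DSS 1 had low housekeeping and epithelial means. That difference between arrays and the effect of DSS cannot be told apart. Thbs1 was the only matrix gene called. It averaged 0.36 ± 0.32 in wild-type DSS mice and -2.12 ± 0.52 in wild-type water mice (SD, n = 3 each), a log2 difference of 2.47 ± 0.57 (95% interval 1.21 to 3.73; limma adjusted p = 0.0174), and the groups did not overlap. Dcn averaged -0.10 ± 0.57 in wild-type DSS mice and -2.27 ± 0.52 in wild-type water mice, a difference of 2.17 ± 0.82 that was not called (adjusted p = 0.106). Fn1 averaged 0.03 ± 0.80 in wild-type DSS mice and -1.79 ± 0.39 in wild-type water mice, a difference of 1.82 ± 0.77 (adjusted p = 0.141). Postn averaged 0.39 ± 0.93 in wild-type DSS mice and -1.26 ± 0.78 in wild-type water mice, a difference of 1.65 ± 0.83 (adjusted p = 0.205).

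The remaining wild-type differences between DSS and water were 0.99 ± 0.49 for Sparc (adjusted p = 0.202), 0.44 ± 0.48 for Tnc (adjusted p = 0.574), 0.30 ± 0.28 for Lox (adjusted p = 0.510) and -0.50 ± 0.43 for Lum (adjusted p = 0.465). The groups did not overlap for Thbs1, Dcn, Fn1 and Sparc, each higher in DSS, and for Lum, lower in DSS. These 5 of 8 stand beside 23.6% of all genes, and the 4 of 8 higher in DSS beside 11.4% of all genes, and the 1 of 8 called beside 13.0% of all genes, 8.89% higher and 4.16% lower. After quantile normalization 197 genes were called higher and 10 lower, against 1894 and 887 without it.

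The median wild-type response was 1.32 over the 8 matrix genes, -0.05 over all genes and 1.27 over the housekeeping genes, of which 9 of 15 were called higher. Of the cell type markers, 8 of 12 epithelial, 5 of 13 macrophage, 4 of 10 neutrophil, 1 of 18 fibroblast and 0 of 18 smooth muscle genes were called higher. These counts and that of the housekeeping genes stand beside 8.89% of all genes called higher. The part of these cell types in the matrix gene values was not tested. The Thbs1 call was lost after quantile normalization (1.41, adjusted p = 0.312), with the housekeeping covariate (1.98, adjusted p = 0.183), and without wild-type DSS 2 (2.32, adjusted p = 0.0738), the array labelled wild-type water 1 (2.36, adjusted p = 0.0547) or wild-type water 3 (2.29, adjusted p = 0.0575). Dcn was called in the fit of the 6 wild-type arrays alone (adjusted p = 0.0257), with the smooth muscle covariate (2.0, adjusted p = 0.0260) and in the fit of 9 arrays (adjusted p = 0.0127). Fn1 was called with the smooth muscle covariate (1.66, adjusted p = 0.0391) and in the fit of 9 arrays (adjusted p = 0.0443).

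In Parp1-/- mice no matrix gene was called between DSS and water. Postn averaged 0.31 ± 1.01 in Parp1-/- DSS mice and 2.0 ± 1.80 in Parp1-/- water mice (SD, n = 3 each), a log2 difference of -1.69 ± 0.83 whose 95% interval ran from -3.52 to 0.13. Lum differed by -0.81 ± 0.43, Tnc by -0.69 ± 0.48, Fn1 by -0.04 ± 0.77, Lox by 0.02 ± 0.28, Sparc by 0.22 ± 0.49, Dcn by 0.23 ± 0.82 and Thbs1 by 0.59 ± 0.57. The limma adjusted p was 1.0 for all 8, and none had an unadjusted p under 0.05. Over all genes 2 were called, which is 0.00938%, and 609 had an unadjusted p under 0.05. No matrix gene had groups that did not overlap, against 12.5% of all genes, 7.82% with DSS higher. The median difference was -0.01 over the matrix genes and 0.01 over all genes. Without Parp1-/- water 1 the differences were -2.73 for Postn, -1.42 for Tnc and -1.42 for Lum. Leaving out any other single Parp1-/- mouse gave -2.24 to -1.11 for Postn, -0.92 to -0.29 for Tnc and -1.06 to -0.44 for Lum, and in the fit of 9 arrays Postn was at -0.16, with none of them called.

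Array weights, which give less weight to arrays far from their group, called 3 of 8 in this comparison, each lower in Parp1-/- DSS: Postn at -2.68 (adjusted p = 0.0179), Lum at -1.33 (adjusted p = 0.0254) and Tnc at -1.30 (adjusted p = 0.0374). Over all genes that setting called 1638. The 18 smooth muscle markers had a median difference of -0.75 between DSS and water in Parp1-/- mice, the 18 fibroblast markers one of -0.36, and their part in these values was not tested.

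After DSS the genotypes were not told apart in the matrix genes. Dcn averaged 0.62 ± 0.51 in Parp1-/- DSS mice and -0.10 ± 0.57 in wild-type DSS mice (SD, n = 3 each), a log2 difference of 0.72 ± 0.82, and Lox averaged -0.11 ± 0.20 in Parp1-/- DSS mice and 0.36 ± 0.59 in wild-type DSS mice, a difference of -0.47 ± 0.28 (95% interval -1.09 to 0.15). Fn1 differed by 0.54 ± 0.77, Lum by 0.40 ± 0.43, Sparc by 0.39 ± 0.49, Thbs1 by 0.28 ± 0.57, Postn by -0.08 ± 0.83 and Tnc by -0.19 ± 0.48. The limma adjusted p of the 8 genes ran from 0.872 to 0.985, and none had an unadjusted p under 0.05. Of all genes 0% were called and 593 had an unadjusted p under 0.05. Sparc was the only matrix gene whose groups did not overlap, with all 3 Parp1-/- DSS mice higher, against 6.55% of all genes in either direction and 2.04% with Parp1-/- DSS higher. The 95% intervals ran from -1.90 to 1.75 for Postn, from -0.98 to 1.54 for Thbs1, from -1.15 to 2.24 for Fn1 and from -1.09 to 2.52 for Dcn, which holds changes of more than 2-fold in both directions for Postn, Fn1 and Dcn.

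The test of the difference between the 2 DSS responses, Parp1-/- minus wild-type, was negative for all 8 genes and called for none. It was -3.34 ± 1.18 for Postn (95% interval -5.92 to -0.76; limma adjusted p = 0.176), -1.95 ± 1.16 for Dcn, -1.88 ± 0.81 for Thbs1 (adjusted p = 0.262), -1.87 ± 1.10 for Fn1 and -1.13 ± 0.69 for Tnc (adjusted p = 0.407). Sparc stood at -0.77 ± 0.70, Lum at -0.31 ± 0.61 and Lox at -0.28 ± 0.40. Postn and Thbs1 had an unadjusted p under 0.05, as did 3737 of all 21314 genes. Over all genes 2.54% were called (2.33% with a difference below 0), and the median was -1.5 over the matrix genes, 0.05 over all genes and -1.37 over the housekeeping genes. Without Parp1-/- water 1, 3 matrix genes were called: Postn at -4.38 (adjusted p = 0.0333), Dcn at -3.21 (adjusted p = 0.0175) and Tnc at -1.86 (adjusted p = 0.0263). With array weights 3 were called too, Postn at -4.28 (adjusted p = 0.0167), Fn1 at -3.35 (adjusted p = 0.0360) and Tnc at -1.99 (adjusted p = 0.0455). The number of genes called over the whole table also moved with the setting. These counts therefore cannot be set against the 2.54% of the main fit or read as particular to the matrix genes. The 4 comparisons share their water and DSS groups, so the same arrays enter more than 1 of them.

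**Figure D4:**
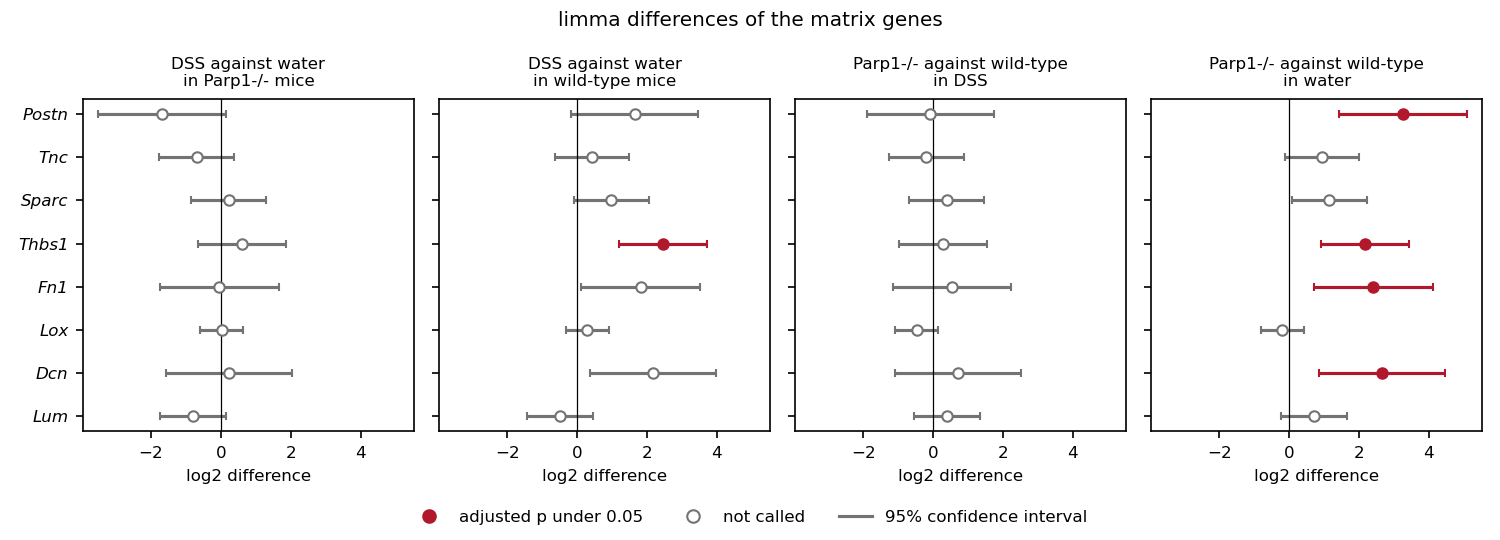
Log2 differences of the 8 matrix genes with 95% intervals (x axis) in each comparison, genes down the y axis, called genes marked. Postn, Thbs1, Fn1 and Dcn are marked for Parp1-/- against wild-type in water and Thbs1 for DSS against water in wild-type mice, and every interval in the remaining panels belongs to a gene that was not called.

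Relatives of these genes were followed in lists of related function. Of 20 further matricellular genes, 2 were higher and 1 lower in Parp1-/- water mice than in wild-type water mice, beside 17.9% of all genes called higher and 13.7% lower. Sparcl1, the closest relative of Sparc and abundant in smooth muscle and vessels, differed by 3.11 ± 0.96 (limma adjusted p = 0.0318), Tgfbi, a TGF-beta-induced protein with the same fasciclin domains as periostin, by 2.26 ± 0.56 (adjusted p = 0.0131) and Comp, a thrombospondin of cartilage, by -0.48 ± 0.15 (adjusted p = 0.0295). Tgfbi was also higher in wild-type DSS than in wild-type water mice, by 2.52 ± 0.56 (adjusted p = 0.0136), and Comp lower, at -0.53 ± 0.15 (adjusted p = 0.0371). In Parp1-/- mice none of the 20 was called for DSS, and the smallest p belonged to Smoc2, at -0.96 ± 0.36 (adjusted p = 1.0). The list's median difference was 0.03 between genotypes in water, -0.08 for DSS in wild-type mice and -0.07 for DSS in Parp1-/- mice.

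Of 12 small leucine-rich proteoglycans other than Dcn and Lum, Prelp, which anchors basement membranes to collagen, was higher in Parp1-/- than in wild-type water mice by 0.87 ± 0.31 (adjusted p = 0.0491 in limma). Epyc, a cartilage proteoglycan, and Podnl1 differed by -0.66 ± 0.18 (adjusted p = 0.0178) and -0.64 ± 0.17 (adjusted p = 0.0162). This 1 higher and 2 lower of 12 stand beside the same shares of all genes. For DSS in wild-type mice Chad, which encodes chondroadherin, was higher by 1.14 ± 0.28 (adjusted p = 0.0222) and Podnl1 differed by -0.63 ± 0.17 (adjusted p = 0.0310). None was called for DSS in Parp1-/- mice, where Chad had the smallest p, at 0.85 ± 0.28. The olfactory and vomeronasal receptor genes averaged 0.40 to 0.46 on the wild-type water arrays and -0.16 to 0.01 on the Parp1-/- water arrays. On the wild-type DSS arrays they averaged 0.45, 0.09 and -0.15. The part of this shift between arrays in the lower calls of Comp, Epyc and Podnl1 was not tested.

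Of 20 elastic fibre and crosslinking genes, the group to which Lox and Fbn1 belong, 2 were higher in Parp1-/- than in wild-type water mice, beside 17.9% of all genes. They were Efemp1, a fibulin, at 1.79 ± 0.51 (limma adjusted p = 0.0241) and Bmp1, the protease that trims procollagen and activates lysyl oxidase, at 1.20 ± 0.25 (adjusted p = 0.00587). None was called for DSS in either genotype. The smallest p belonged to Emilin2 in wild-type mice, at 0.98 ± 0.41 (adjusted p = 0.134), and to Mfap4 in Parp1-/- mice, at -0.45 ± 0.21 (adjusted p = 1.0).

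Of 16 receptors for these proteins, 4 were higher in Parp1-/- than in wild-type water mice, beside 17.9% of all genes, and 5 were higher in wild-type DSS than in wild-type water mice, beside 8.89% of all genes. Itgb1, the integrin beta chain of the main fibronectin and collagen receptors, differed by 2.45 ± 0.39 between genotypes in water (limma adjusted p = 0.00157) and by 1.88 ± 0.39 for DSS in wild-type mice (adjusted p = 0.00985). Cd47, the receptor of thrombospondin-1, differed by 2.51 ± 0.50 (adjusted p = 0.00509) and 1.79 ± 0.50 (adjusted p = 0.0379) in the same comparisons. Sdc4, a fibronectin co-receptor, differed by 2.14 ± 0.26 (adjusted p = 0.000358) and 1.66 ± 0.26 (adjusted p = 0.00233). Cd44, the hyaluronan and osteopontin receptor, was called in water at 1.29 ± 0.36 (adjusted p = 0.0207) and Itgb6, an epithelial integrin chain that activates TGF-beta, for DSS in wild-type mice at 1.27 ± 0.33 (adjusted p = 0.0294). For DSS in Parp1-/- mice none was called, and Itgb8, another integrin chain that activates TGF-beta, had the smallest p, at 1.60 ± 0.37 (adjusted p = 0.454).

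Of 14 TGF-beta pathway genes, 3 were higher in each of those comparisons, beside the same 17.9% and 8.89% of all genes. Smad4, the shared signal transducer, differed by 1.73 ± 0.25 between genotypes in water (limma adjusted p = 0.00104) and by 2.27 ± 0.25 for DSS in wild-type mice (adjusted p = 0.000288). Tgfbr1, the type I receptor, differed by 1.35 ± 0.28 (adjusted p = 0.00581) and 0.95 ± 0.28 (adjusted p = 0.0453). Smad7, the inhibitory SMAD, was called in water at 1.45 ± 0.49 (adjusted p = 0.0434), and Skil, a repressor of SMADs, for DSS in wild-type mice at 0.97 ± 0.24 (adjusted p = 0.0244). None was called for DSS in Parp1-/- mice, where Smad4 differed by 0.81 ± 0.25.

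The receptor and TGF-beta lists averaged -0.81 to -0.76 and -0.65 to -0.42 on the 3 wild-type water arrays, the arrays with low housekeeping genes, and the part of those arrays in these calls was not tested. No gene of these 5 lists was called between genotypes after DSS, where the smallest p in each list belonged to Thbs4 (1.35), Bgn (-0.56), Bmp1 (0.31), Itgb8 (1.08) and Smad7 (1.25), each with a limma adjusted p of 0.872. None was called for the difference of the DSS responses, where Sdc4 was at -1.56 (adjusted p = 0.0513), Smad4 at -1.46 (adjusted p = 0.0591) and Tgfbi at -2.50 (adjusted p = 0.132).

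Likeness to Postn and Dcn was taken as the root mean square difference of the centred log2 values over the 12 arrays. The nearest genes to Postn were Dpt, which encodes dermatopontin, a decorin-binding matrix protein, at 0.471, Flna, which encodes the actin crosslinker filamin A, at 0.568, and the small RNA Rny1 at 0.595, while the root mean square of Postn itself was 1.56. The nearest genes to Dcn were Fn1 at 0.427, Lgals1, which encodes galectin-1, at 0.456, and the small nucleolar RNA Snord99 at 0.697, while that of Dcn itself was 1.54. Dpt is in the fibroblast list and Flna in the smooth muscle list.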

How the data were processed

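Affymetrix arrays were used to profile whole-colon RNA of the 12 mice, per the labels' protocols; no batch or scan date is named there. The table that the authors deposited holds 31693 probe sets on a log2 scale, and every probe set has a median of 0 across arrays (to within 5e-07). Their software, normalization, log base and direction are not stated in the labels or the file; base 2 was assumed, and that more RNA gives a larger value. No scanner files were used, so signal over background is unknown. No pair of arrays was identical, and all columns belonged to the 12 samples. The mice were separate animals, grouped by their labelled genotype and treatment, and replicate numbers only name them.

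Probe sets were named from the platform annotation: 22586 had 1 gene symbol, 1756 several and 7351 none. A gene's value was the mean of its probe sets, which gave 21314 genes. Promoter sequences and gene neighbours were taken from RefSeq tables of GRCm38.p6, and only bases upstream of start sites were read. One model of the 4 groups was fitted over all 12 arrays with limma 3.58.1 in R 4.3.3 (lmFit and eBayes), with two-sided tests and Benjamini-Hochberg adjustment over all genes. Its steps were tested on simulated data. Python 3.11.15, pandas 2.3.3 and matplotlib 3.10.9 were used for tables and figures.

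The matrix genes and 14 gene lists (189 of 200 entries measured) were chosen with earlier results of these data known. Named genes were all matrix genes, Parp1, up to 4 called genes with the largest change per list and comparison (otherwise the 1 of smallest p), and the 3 genes nearest to Postn and Dcn. Alternatives were 2 normalizations, probe sets tested singly, trend and robust options, array weights, subsets of arrays, covariates and leaving out each array. A fit of 9 arrays was added after seeing the data.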

Additional observations from a re-analysis of the deposited data

How the results depend on the processing

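Over 22 alternatives, 656 values of the 8 matrix genes were recomputed: 555 kept their direction and their side of the threshold, 38 lost a call, 20 gained one and 43 changed sign, none of the last being called under either setting. The cause of these changes was not tested. Only calls of the main fit could be lost. Of 15 alternatives each, the Thbs1 call for DSS in wild-type mice held in 10. For genotype in water, the call of Postn held in 9, Thbs1 in 7, Dcn in 6 and Fn1 in 5. Testing probe sets singly could not change a direction, as each gene had 1 probe set. The trend and robust options left every difference unchanged too. For Parp1-/- against wild-type in water, where 4 of 8 were called, 0 were called after quantile normalization, with the smooth muscle or the housekeeping covariate and in the fit of 9 arrays, 2 with only the 6 arrays compared, and 0 to 7 when an array was left out. For DSS against water in wild-type mice, where 1 was called, 0 were called after quantile normalization and with the housekeeping covariate, 2 with only the 6 arrays compared, 3 with the smooth muscle covariate and with the 9 arrays, and 0 to 1 when an array was left out. Array weights called 3 for DSS against water in Parp1-/- mice and 3 for the difference of the DSS responses, where leaving out an array gave 0 to 3. Genes called over the whole table went from 6725 to between 147 (9 arrays) and 9987 (array weights) for genotype in water, from 2781 to between 207 (quantile normalization) and 6865 (without wild-type DSS 1) for DSS in wild-type mice, from 542 to between 0 and 5463 for the difference of responses, from 2 to between 0 and 1638 for DSS in Parp1-/- mice and from 0 to at most 631 for genotype in DSS. Sign changes for DSS in Parp1-/- mice were Fn1 at 0.29 after quantile normalization, 0.61 with the smooth muscle and 0.062 with the housekeeping covariate. Array weights gave Sparc -0.29, Lox -0.10 and Dcn -0.82, and the 9 arrays gave Tnc 0.53, Fn1 1.72 and Lum 0.17. Leaving out an array gave -0.46 to 0.56 for Sparc, -0.20 to 1.05 for Thbs1, -1.13 to 0.52 for Fn1, -0.17 to 0.19 for Lox and -1.03 to 0.87 for Dcn. For DSS in wild-type mice, Lox was -0.081 with array weights, -0.19 with the housekeeping covariate and -0.034 to 0.52 without an array, and Postn was -0.0091 with the housekeeping covariate. For genotype in DSS, Fn1 was -0.21 with array weights and -0.13 with the smooth muscle covariate, and leaving out an array gave -0.63 to 0.40 for Postn and -0.51 to 0.74 for Thbs1. For genotype in water, Lum was -0.11 with the smooth muscle covariate, and the 9 arrays gave Tnc -0.51, Sparc -0.21 and Lum -0.52. For the difference of responses, Sparc was 0.23 after quantile normalization, Lum 0.14 with the smooth muscle covariate and Lox 0.25 with the housekeeping covariate. The 9 arrays gave Tnc 0.095, Sparc 0.64, Lox 0.068, Dcn 0.30 and Lum 0.67, and leaving out an array gave -0.50 to 0.054 for Lox and -0.93 to 0.053 for Lum. A fit of 8 arrays that left out wild-type DSS 1 and all wild-type water arrays called 0 matrix genes in the 2 comparisons it allows. No paired analysis was possible because the labels give each mouse an animal number of its own and no replicate number shared between groups. With 3 mice a group and no scanner files, the limits are the spread between mice and an unknown signal over background.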

Other observations

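Neutrophil markers separated DSS from water arrays in both genotypes. Means of 10 neutrophil genes were 0.08, 0.89 and 0.20 on the Parp1-/- DSS arrays, -0.37, -0.85 and -0.95 on the Parp1-/- water arrays, 0.49, 1.35 and 0.99 on the wild-type DSS arrays and -0.21, -0.35 and -0.27 on the wild-type water arrays, so DSS and water arrays did not overlap in either genotype. Ly6g, a surface marker of neutrophils, was higher in wild-type DSS than in wild-type water mice by 3.17 ± 0.86 on the log2 scale (limma adjusted p = 0.0345), and in Parp1-/- mice the difference was 4.10 ± 0.86 (adjusted p = 0.375). Parp1-/- water 2 and 3, highest of all arrays for 6 of the 8 matrix genes, were the lowest of all arrays for these markers.

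Mesothelial markers, which would mark the outer lining of the colon wall, had means over 5 genes of 0.40, -0.17 and -0.13 on the Parp1-/- DSS arrays, -0.27, 0.16 and 0.05 on the Parp1-/- water arrays, -0.02, -0.14 and 0.09 on the wild-type DSS arrays and 0.02, 0.26 and 0.44 on the wild-type water arrays. Parp1-/- DSS 1 was above its group mates in 5 of 5 of these genes, against 46.1% of all genes. Parp1-/- water 2 and 3 were above theirs in 4 of 5, against 38.9% of all genes. Means of wild-type water 2 and 3 overlapped those arrays, and the highest mean, 0.44, was that of wild-type water 3. Elastic fibre and crosslinking genes had means of 20 genes from 0.43 to 0.71 on Parp1-/- DSS 1 and Parp1-/- water 2 and 3 and from -0.23 to 0.14 on the other 9 arrays, while 8 of the 20 had all 3 arrays above the other 9, as did 5 of the 8 matrix genes and 4.71% of all genes.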
